A study of Mus musculus with 2 samples.

Results

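T cells were present in the spleen natural killer (NK) cell library of mice under dietary restriction (DR). A cell barcode counted as a T cell when it carried at least 1 unique molecular identifier (UMI, 1 counted transcript molecule) of Cd3e and at least 1 of Trac, Cd8b1 or Cd4. It also had to carry 0 UMIs of the NK cell genes Ncr1 and Klrb1c and of the B cell gene Cd79a. This rule found 235 T cells among the 6120 DR barcodes kept (500 or more genes, mitochondrial UMIs no higher than 10%), a share of 3.84% (exact Clopper-Pearson 95% interval 3.37 to 4.35). Among them, 86 carried Cd8b1 and no Cd4, 96 carried Cd4 and no Cd8b1, 7 carried both and 46 carried neither. In the control library, of spleen NK cells from mice labelled normal or control, the same rule found 2 of 5487 barcodes (0.0364%, 0.00441 to 0.132). The whole series held 11607 such barcodes from these 2 libraries. The labels give the organism, tissue, cell type, sorting by flow cytometry and treatment, and neither strain, age, sex, number of mice, sorting gate nor the form of the restriction was given in them.

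T cells recognise peptides held by MHC molecules through a receptor made of the Trac and Trbc chains, which sits on the membrane with the CD3 proteins (Cd3d, Cd3e, Cd3g and the zeta chain Cd247). CD8 T cells use the coreceptor CD8, a dimer of the Cd8a and Cd8b1 products, and mostly become killer cells, whereas CD4 T cells carry CD4 and become helper or regulatory cells. In the spleen most resting T cells are naive cells that circulate through lymphoid organs under Ccr7 and S1pr1. NK cells lack a T cell receptor and kill with granzymes and perforin.

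The start regions of 4 genes are shown because their transcripts marked the members: Cd3d and Cd3g, subunits of CD3 that the rule did not use, and Dapl1 and Igfbp4, which were nearly absent from NK cells. Each line gives the 250 bases before the gene start from RefSeq (build GRCm38.p6), 5′ to 3′ on the gene's strand. Cd3d is read from chr9:44981536-44981785 on the plus strand, Cd3g from chr9:44980432-44980681 on the minus strand, Dapl1 from chr2:59484403-59484652 on the plus strand and Igfbp4 from chr11:99040994-99041243 on the plus strand. Capitals mark matches, on either strand, to an ETS motif (GGAAGT, reverse complement ACTTCC), a TCF/LEF motif (CTTTGT or CTTTGA, reverse complement of the latter TCAAAG) or a TATA box (TATAAA); a RUNX motif (TGTGGT) was searched too and none of these motifs overlap in the lines shown.
Cd3d: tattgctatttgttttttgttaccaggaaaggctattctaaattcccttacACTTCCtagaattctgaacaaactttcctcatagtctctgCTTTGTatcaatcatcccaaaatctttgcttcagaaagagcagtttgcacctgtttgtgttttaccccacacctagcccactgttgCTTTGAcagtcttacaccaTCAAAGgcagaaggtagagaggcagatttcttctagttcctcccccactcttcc
Cd3g: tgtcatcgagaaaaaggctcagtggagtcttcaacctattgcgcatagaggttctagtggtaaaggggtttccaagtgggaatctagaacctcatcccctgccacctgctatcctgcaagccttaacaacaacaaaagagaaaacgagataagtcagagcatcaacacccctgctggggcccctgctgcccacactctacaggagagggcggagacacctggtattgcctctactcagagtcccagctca
Dapl1: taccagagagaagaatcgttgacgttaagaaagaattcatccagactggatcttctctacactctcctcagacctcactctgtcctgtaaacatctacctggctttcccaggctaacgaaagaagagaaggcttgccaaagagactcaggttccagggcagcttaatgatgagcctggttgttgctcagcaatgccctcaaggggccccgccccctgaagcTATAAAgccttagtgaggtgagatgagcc
Igfbp4: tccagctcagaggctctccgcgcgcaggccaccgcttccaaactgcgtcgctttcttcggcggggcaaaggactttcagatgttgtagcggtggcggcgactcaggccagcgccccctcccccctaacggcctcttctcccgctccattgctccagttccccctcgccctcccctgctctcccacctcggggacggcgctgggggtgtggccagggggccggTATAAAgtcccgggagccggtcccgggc
Cd3d and Cd3g are transcribed away from each other, with 1355 bp between the Cd3d start and the Cd3g start in the gene annotation. The Cd3d window held 1 ETS and 3 TCF/LEF matches, whereas the Cd3g window held none of the 4 motifs. Dapl1 and Igfbp4 each held 1 TATA box, which begins 29 bases before the start in Dapl1 and 28 bases before it in Igfbp4. Among 27025 windows of the same length, 19.99% held the ETS letters, 27.7% a TCF/LEF match, 14.2% the RUNX letters and 13.0% the TATA box. Of the 232 genes at least 2-fold higher in T cells than in NK cells, 183 had a window, and 27.9% of these held a TCF/LEF match against 20.3% of the 4597 windows of all genes compared. The same shares were 20.2% against 27.2% for ETS, 11.5% against 11.1% for RUNX and 8.20% against 6.07% for the TATA box, so they differed in both directions. The matches are letters in a window and show no binding.

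The DR library held 6287 barcodes and 42134212 UMIs and the control library 5702 barcodes and 44526828 UMIs. The members had 2317 to 85642 UMIs per cell, with a median of 8484 and 2347 genes. NK cells of the same library, taken as barcodes with Ncr1 or Klrb1c and no Cd3e or Cd79a, numbered 4953 with a median of 5630 UMIs. B cells (Cd79a and Ms4a1 UMIs, none of Cd3e, Ncr1 or Klrb1c) numbered 397 with a median of 6628 UMIs and served as the reference for free RNA, which puts UMIs of abundant genes into droplets of other cells. They too were a larger share of the DR library, at 6.49% (5.88 to 7.13) of kept barcodes, than of the control library, where 93 of 5487 met the same definition (1.69%, 1.37 to 2.07). Both libraries shared 13 barcode sequences, and 1 member had such a barcode. Levels are counts per 1000000 UMIs (CPM), summed over the cells of a class. Intervals are exact at 95% (Poisson for levels, conditional binomial for ratios, Clopper-Pearson for shares) and cover counting error only. Each group was 1 library and cells are not replicates, so no difference was tested and genes were called by size alone.

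**Figure D1:**
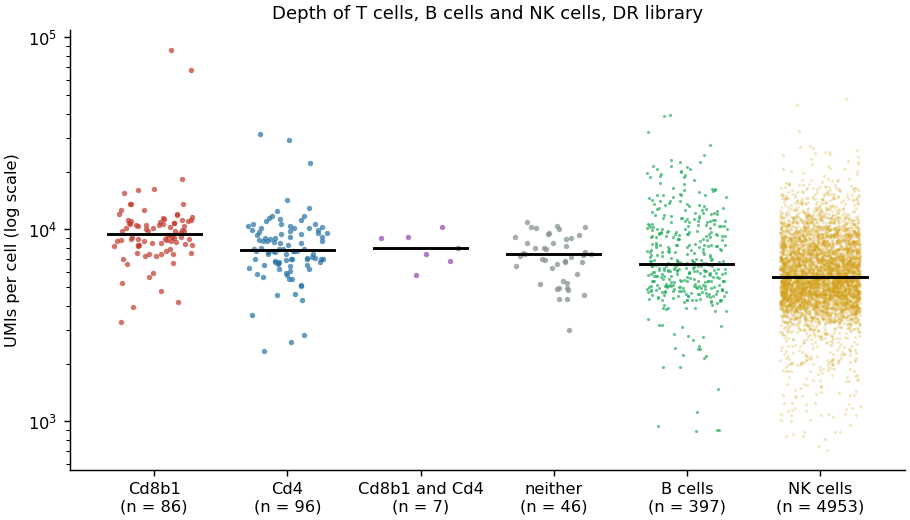
UMIs per cell (log axis) for the members by coreceptor transcript and for B cells and NK cells of the DR library; each point is 1 cell and each bar the class median. The medians of the Cd8b1, Cd4 and neither members were 9476, 7806 and 7420 UMIs, and 2 Cd8b1 cells at 85642 and 67344 UMIs stand above all other members.

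The rule rests on measured transcripts, and its edges were as follows. Of 364 DR barcodes with Cd3e, 347 also carried Trac, Cd8b1 or Cd4. The requirement of 0 Ncr1 and Klrb1c UMIs removed 94 of these, the Cd79a requirement removed 9, and both together removed another 9. An Ncr1 or Klrb1c UMI was carried by 103 of the 347 (29.7%, 24.9 to 34.8) and by 146 of 543 barcodes with B cell transcripts (26.9%, 23.2 to 30.8), at median depths of 8867 and 7599 UMIs. Among the removed barcodes, 33 had exactly 1 such UMI, and their Tyrobp level was 42.2 CPM, against 28.0 CPM in the members and 931 CPM in the 94 barcodes. The 10 members with only 1 Cd3e UMI held Cd3d at 838 CPM and Ccr7 at 680.0 CPM. Just outside, 16 barcodes had Trac, Cd8b1 or Cd4 but no Cd3e, and they held Cd3d at 279 CPM and Tyrobp at 1816 CPM. The removed barcodes had median depths of 10074.5 UMIs (an NK gene), 7491 UMIs (Cd79a) and 16733 UMIs (both).

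Receptor transcripts not used by the rule followed the label. Cd3d had 981 CPM in members (range 0 to 69 UMIs per cell, median 8) against 35.2 CPM in NK cells, a log2 ratio of 4.80 (4.69 to 4.91), and was found in 99.6% of members, 7.43% of NK cells and 3.02% of B cells. Cd3g had 900.3 CPM against 26.7 CPM and was found in all 235 members (100%), with a median of 7 UMIs. Cd247, the zeta chain, which NK cells also use to signal, had 194 CPM in members and 105 CPM in NK cells, a log2 ratio of 0.89 (0.74 to 1.03) that stays under 2-fold. Of the 5 receptor chains outside the rule, 4 were at least 2-fold higher (Cd3d, Cd3g, Trbc1 and Trbc2), where 4.09% of all 5676 compared genes were. With either other scaling named below, Cd247 also passed, making 5 of 5.

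The beta chain constant genes differed in how they were spread over cells. Trbc2 had 2214 CPM in members (0 to 300 UMIs, median 17) and was present in 99.1% of them, against 257 CPM and 40.3% of NK cells. Trbc1 had 949 CPM in members and 358 CPM in NK cells, with transcripts in 64.7% of members, 66.8% of NK cells and 6.30% of B cells. In members, 150 cells carried both, 83 carried Trbc2 alone and 2 carried Trbc1 alone; in NK cells the Trbc1-only count was 1901 and the Trbc2-only count 587. The 2 genes are near-identical in sequence, so the counting of reads between them is uncertain.

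Variable segments lie at the 5′ side of the receptor transcripts, while the libraries read 3′ ends, and a minority of members showed one. A Trav (alpha chain) segment was found in 83 members (35.3%, 29.2 to 41.8) and a Trbv (beta chain) segment in 54 (23.0%, 17.8 to 28.9). They were spread over 41 Trav and 18 Trbv genes. The most frequent were Trav14d-3-dv8 and Trbv2 with 10 members each, Trav6-7-dv9 and Trbv12-2 with 8 each and Trav3-3 with 6, so no segment was carried by more than 10 members. Some Trav genes have near-identical copies, and 18 members carried 2 or more Trav genes. B cells carried none (0 of 397, Clopper-Pearson upper bound 0.925%). Of 301 NK cells with a Trav segment, 291 carried Trav22, and 3 NK cells had a Trbv segment.

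Against NK cells, 232 of 5676 compared genes (mean level 20 CPM or more) were at least 2-fold higher in the members (4.09%) and 628 at least 2-fold lower (11.1%). The median log2 ratio of all genes was -0.27. Ribosomal protein genes took 38.0% of UMIs in members, 22.3% in NK cells and 32.7% in B cells, and 83 of 88 of them were above a ratio of 1, with a median log2 ratio of 0.75. The split of higher and lower genes depended on the scaling: it was 371 higher and 452 lower with median-of-ratios scaling, where the median gene lies at -0.0013, and 564 higher and 497 lower with ribosomal and mitochondrial genes left out of the total, where 6879 genes were compared and it lies at 0.081. Since the rule chose the cells by their transcripts, these counts describe the members and test nothing.

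**Figure D2:**
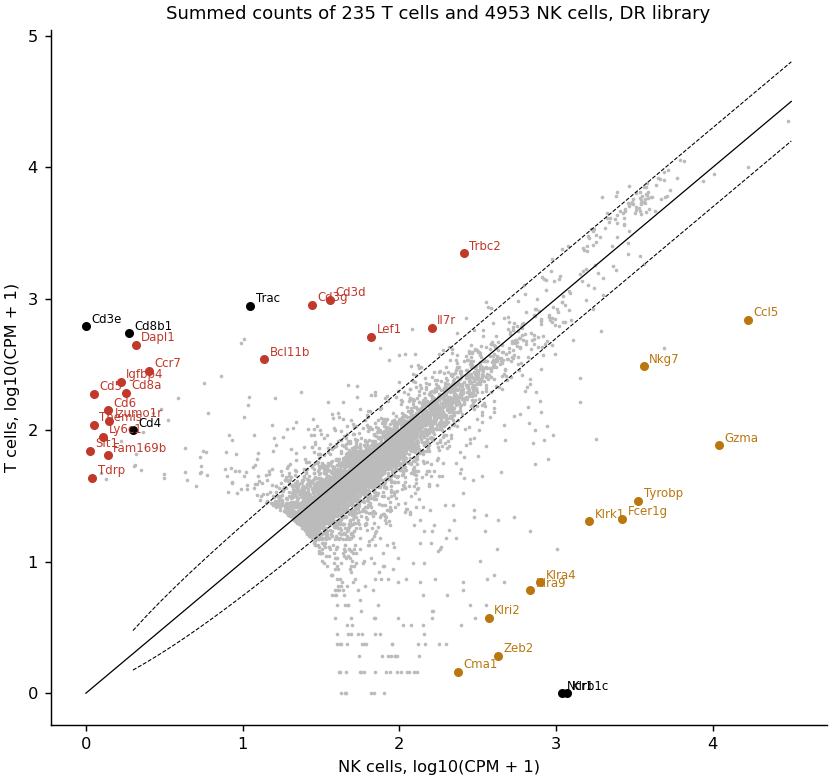
Level of each compared gene in the 235 T cells (vertical) and the 4953 NK cells (horizontal) of the DR library, both as log10(CPM + 1); the solid line is equality and dashed lines are 2-fold. Red labels are genes higher in T cells, ochre labels genes lower, and black labels genes of the membership rule. Cd5, Dapl1, Igfbp4 and Ccr7 lie far above equality with NK levels under 2 CPM, and Gzma, Tyrobp and Zeb2 lie far below it.

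The genes with the largest ratios outside the rule were Cd5, Themis, Sit1, Dapl1, Igfbp4, Cd6, Izumo1r, Cd8a, Ly6c1, Tdrp, Ccr7 and Fam169b. Cd5, an inhibitory surface receptor of T cells, had 188 CPM in members (0 to 20 UMIs, median 1) and 0.127 CPM in NK cells, and was found in 63.8% of members and 1.26% of B cells. The related receptor Cd6 had 141 CPM against 0.381 CPM. Themis, a T cell receptor signalling protein of thymic selection, had 108 CPM against 0.127 CPM, and the membrane adaptor Sit1 had 68.9 CPM against 0.0635 CPM. Dapl1 had 443 CPM against 1.08 CPM (0 to 57 UMIs, median 1), and Igfbp4, which encodes a binding protein of insulin-like growth factors, had 233 CPM against 0.667 CPM. Dapl1 and Igfbp4 were each found in 50.6% of members, and in 0.252% and 0% of B cells. These transcripts were thus nearly confined to the members among the 3 classes, yet neither was in every member.

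Among 21 genes of T cell receptor signalling, 10 were at least 2-fold higher in members, 2 were lower and 9 lay between. Their median log2 ratio was 0.44, and over all compared genes 4.09% were higher and 11.1% lower. The higher members included Lat, the membrane scaffold of the receptor (422 against 73.8 CPM) and the costimulatory receptor Cd28 (184 against 65.2 CPM). Lck, the kinase that starts receptor signalling and is shared with NK cells, lay between at 432 against 332 CPM. The kinases Txk (196 against 630.4 CPM) and Fyn (151 against 309.6 CPM) were lower, though Fyn fell short of 2-fold under either other scaling, which left 1 lower gene.

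Summed over the members, most transcripts of naive T cells were higher than in NK cells, though not in every member. Of 15 naive T cell genes, 10 were at least 2-fold higher than in NK cells, where 4.09% of all compared genes were. The other 5 lay between, and the median log2 ratio was 2.25. Without the 2 deepest members the count of higher genes was again 10. Ccr7, the receptor that guides cells into lymphoid organs, had 282 CPM (0 to 18 UMIs, median 2) against 1.52 CPM and was found in 79.1% of members, 0.727% of NK cells and 39.3% of B cells. Lef1 and Tcf7, transcription factors of naive and memory T cells, had 511 against 65.2 CPM and 342 against 85.3 CPM. Il7r, the receptor for the survival cytokine interleukin-7, had 601 against 160.0 CPM, and S1pr1, which lets cells leave lymphoid organs, had 221 against 46.3 CPM. Klf2, a factor that maintains the trafficking genes, lay between at 689 against 1239 CPM, lower in members than in NK cells without reaching 2-fold.

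**Figure D3:**
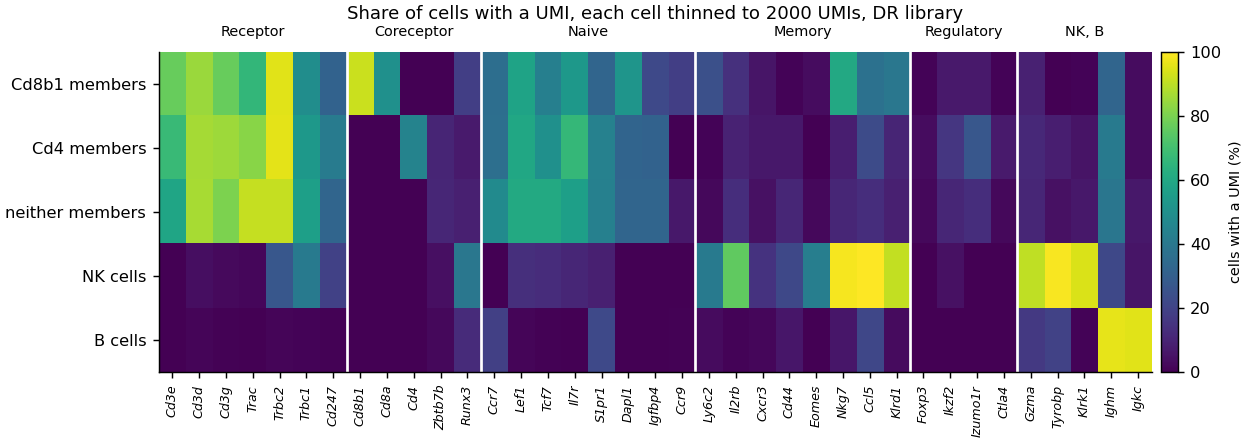
Share of cells with a UMI (colour, in percent) for genes grouped by role (columns) in 3 groups of members and in NK and B cells (rows), after each cell was thinned to 2000 UMIs; 88 NK cells and 8 B cells were shallower and are left out. The Cd8b1 members alone combine Cd8a (43 of 86 cells) with Nkg7 (60.5%), and Lef1 is present in 58.1% to 60.9% of all 3 member groups against 13.3% of NK cells.

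Effector and NK transcripts were low beside NK cells. Of 20 compared genes of memory and effector T cells, 19 were at least 2-fold lower than in NK cells and none was higher. Their median log2 ratio was -3.94. All 18 compared NK receptors and adaptors were lower, with a median of -6.06, where 11.1% of all compared genes were lower. Against B cells the memory and effector list was not low. It summed to 2008 CPM in members, 3450 CPM in Cd8b1 members and 796 CPM in Cd4 members. The sums were 40368 CPM in NK cells and 518 CPM in B cells. NK receptors and adaptors summed to 323 CPM in members and 249 CPM in B cells. Tyrobp, the signalling adaptor of NK receptors, had 28.0 CPM in members (0 to 5 UMIs) against 3330 CPM. Gzma, a granzyme, had 75.8 CPM against 10851 CPM, and was found in 38.7% of members and 41.1% of B cells, so members carried it no more often than the free RNA reference. Zeb2, a factor of terminal effector and NK maturation, had 2 UMIs in all members together (0.919 CPM against 426 CPM, log2 ratio -8.86, -11.90 to -7.00). Eomes had 23.9 CPM against 298 CPM and Il2rb, a receptor chain for interleukin-2, 83.6 against 829 CPM. The Klra genes have close paralogs, and reads split between them are uncertain.

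In the other lists the members were mixed. Over all 5676 compared genes, 4.09% were higher and 11.1% lower, so 1 lower gene of 11 is near the share of all genes. Of 24 transcription factors, 5 were higher (Lef1, Tcf7, Foxo1, Id3 and Bcl11b, the factor of T cell identity at 344 against 12.8 CPM) and 8 lower, among them Id2, the inhibitor that supports NK cells, at 85.0 against 1784 CPM. Of 16 cytokine receptors 5 were higher and 6 lower; the higher ones included Il6ra (95.6 against 1.302 CPM) and its partner Il6st (71.7 against 3.27 CPM), the receptor pair for interleukin-6. Of 16 homing and adhesion genes 3 were higher (Ccr7, S1pr1 and Ccr9) and 7 lower, including the integrin chain Itga4 (193 against 747 CPM). Of 9 type I interferon response genes 2 were higher, among them Ifi27l2a at 491 against 9.24 CPM, found also in 62.7% of B cells. Irf7 of the same list had 33.5 against 49.1 CPM. Of 14 glucocorticoid and FOXO targets, which respond to stress hormone and to low insulin signalling, 3 were higher: Foxo1 itself (119 against 48.4 CPM), Pik3ip1 (163 against 34.2 CPM) and Ddit4 (262 against 127 CPM). Tsc22d3 of that list, a glucocorticoid target, had 326 against 231 CPM. Of the 11 compared immediate early genes, which answer fresh stimulation, 2 were higher (Cd69 at 145 against 55.2 CPM and Egr1 at 40.0 against 11.6 CPM) and 2 lower, the latter short of 2-fold under either other scaling. No gene was higher among 8 survival and death genes (2 lower), 5 checkpoint genes (1 lower) and 11 MHC class I genes (1 lower), although 2 checkpoint genes, Btla and Vsir, passed 2-fold with the total taken over nuclear, non-ribosomal genes. Of 6 compared genes of regulatory and helper T cells 3 were higher (Ikzf2, Izumo1r and Icos) and 1, Gata3, lower, at 37.7 against 79.2 CPM; Gata3 fell short of 2-fold under either other scaling. With 2 control members, none of this can be set against T cells of control mice.

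Transcripts of other cell types were checked. The 10 B cell markers outside the rule summed to 360.3 CPM in members, 333 CPM in NK cells and 41749 CPM in B cells. Most of the members' sum was Ighm, the IgM heavy chain, with 295 CPM and a UMI in 76.2% of members against 46.1% of NK cells. Igkc, the kappa light chain, had 18.8 CPM. The Ighm to Igkc UMI ratio was 15.6 in members (641 to 41 UMIs, 11.4 to 22.0), 4.51 in NK cells and 0.312 in B cells, so the members did not carry these transcripts in the proportion of the B cells. Myeloid markers summed to 3.22 CPM, dendritic cell markers to 1.38 CPM, and red cell and platelet markers were all at 0. The thymocyte genes Rag1, Rag2 and Arpp21 were at 0 in all members (3 UMIs would be 1.38 CPM). The other two genes of that list were present, and the list summed to 10.1 CPM in members, 0.413 CPM in NK cells and 1.23 CPM in B cells. Dntt, the enzyme that adds bases at receptor joints, had 8 UMIs in 7 members, and Ptcra, the pre-receptor alpha chain, had 14 UMIs in 2 members, 13 of them in a single Cd4 member. Of the 2 compared ILC1 markers Cxcr6 was higher (31.3 against 11.4 CPM) and Tmem176b lower. The only compared plasma cell marker, Xbp1, was lower. Trdc, the delta chain constant gene, had 12.4 CPM against 82.6 CPM in NK cells.

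The coreceptor transcripts were caught very unequally. Cd8b1 had 1 to 87 UMIs in the 86 Cd8b1 members with a median of 12, whereas Cd4 had 1 to 6 UMIs in the 96 Cd4 members with a median of 2, and 41 of them had just 1. Cd8a, which the rule did not use, had 434 CPM in the Cd8b1 members and was found in 89.5% of them, while a single UMI was found in the Cd4 members (1.21 CPM). It was at 0 in the 46 cells with neither coreceptor, where 3 UMIs would be 8.90 CPM. The 7 members with both coreceptors had no Cd8a UMI either, and 5 of them had 1 Cd8b1 UMI. Zbtb7b, the factor that commits cells to the CD4 lineage, had 44.9 CPM in the Cd4 members and 56.4 CPM in those with neither, found in 34.4% and 34.8% of cells. In the Cd8b1 members Zbtb7b was at 0, at least 14.3-fold lower than in the Cd4 members when 3 UMIs over the group are taken as the floor. Runx3, the opposing factor of the CD8 lineage, had 151 CPM in the Cd8b1 members, 48.5 CPM in the Cd4 members and 86.1 CPM in cells with neither. In Cd8a and Zbtb7b the members with neither coreceptor thus lay with the Cd4 members; how many of them lacked a Cd4 UMI through shallow capture was not tested.

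Between the Cd8b1 and Cd4 members, 1201 genes (mean level 100 CPM or more) were compared outside the rule. Of these, 20 were at least 2-fold higher in the Cd8b1 members (1.67%) and 11 at least 2-fold lower (0.916%), with a median log2 ratio of -0.063. Without the 2 deepest members, both of them Cd8b1 cells, 11 were higher and 11 lower. The genes with the largest ratios were Cd8a, Ly6c2, Hist1h2ap, Nkg7, Klrd1, Ccl5, Ctla2a and Ctsw on the Cd8b1 side (Ctla2a and Hist1h2ap have close copies whose reads may be split), and S100a4, Izumo1r, Ly6a, Ifi27l2a, Itgb1, Ikzf2, Tspan32 and Cd28 on the Cd4 side.

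**Figure D4:**
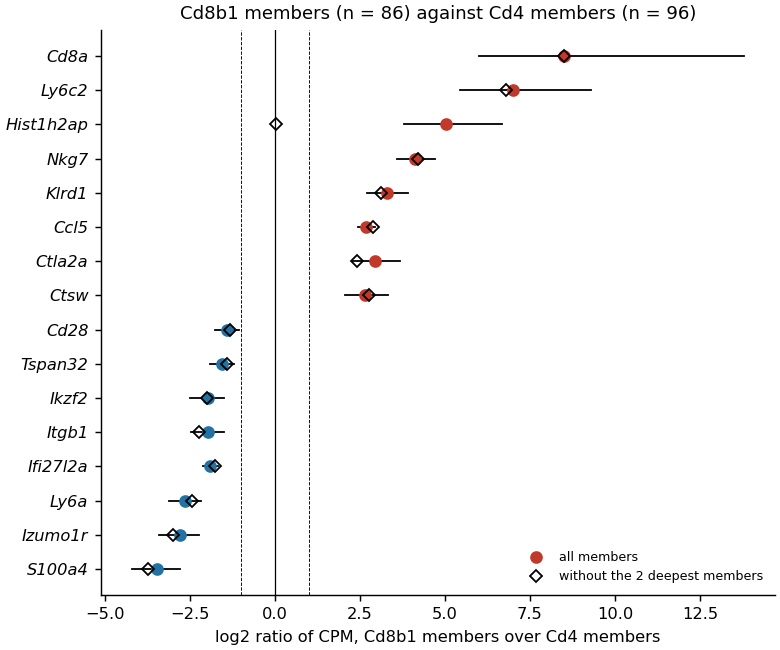
Log2 ratio of CPM, Cd8b1 members over Cd4 members, for the 8 named genes each way; filled points are all members with exact 95% counting intervals, open diamonds the value without the 2 deepest members, and dashed lines 2-fold. Hist1h2ap moves from 199 against 6.06 CPM to 6.21 CPM in the Cd8b1 members, while the other 15 genes keep their side and stay past 2-fold.

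Some genes of cytotoxic and memory cells were higher in the Cd8b1 members. Of the 23 genes of the memory and effector list, 5 reached the level limit. All 5 were higher (Ly6c2, Ccl5, Nkg7, Ctsw and Klrd1), where 1.67% of all compared genes were. Ly6c2, Nkg7, Ctsw and Klrd1 reached the limit only through the Cd8b1 members, so their direction was largely fixed by it. At a minimum 5 times lower, 15 genes of the list were compared, of which 9 were higher and 1 lower. The 5 genes stayed higher without the 2 deepest members. Nkg7, a granule membrane protein, had 637 CPM against 36.4 CPM, a log2 ratio of 4.13 (3.60 to 4.71). It was found in 95.3% of Cd8b1 members (0 to 39 UMIs, median 5), 24.0% of Cd4 members (0 to 4 UMIs) and 15.9% of B cells. After thinning to 2000 UMIs the shares were 60.5%, 8.33% and 6.17%, so the Cd4 members lay near the B cell reference. Klrd1, the CD94 receptor chain, had 319 against 32.7 CPM, and Ctsw, a protease of killer cells, 199 against 31.5 CPM. Thinned shares for Klrd1 were 39.5% in Cd8b1 members and 10.4% in Cd4 members against 3.08% in B cells. Of 14 genes of regulatory and helper T cells, 2 reached the level limit, both only through the Cd4 members, so their direction was largely fixed by it. They were lower in the Cd8b1 members, Ikzf2 at 47.0 against 185 CPM and Izumo1r at 31.3 against 218 CPM, where 0.916% of all compared genes were. At a minimum 5 times lower, 9 genes of that list were compared, with 8 lower and 0 higher. Ifi27l2a, 1 of 2 compared interferon response genes, was also lower. Both compared cell cycle genes were higher, Stmn1 at 188 against 77.6 CPM and Pcna at 171 against 77.6 CPM, but without the 2 deepest members they were at 31.1 and 57.2 CPM in the Cd8b1 members. Of 12 compared naive genes only Igfbp4 was past 2-fold, lower in Cd8b1 members (126 against 290 CPM) and within 2-fold without the 2 deepest members, and of 16 signalling genes only Cd5 and Cd28, both lower. None was past 2-fold among the compared 5 receptor chains, 8 homing genes, 3 cytokine receptors, 10 transcription factors, 8 immediate early genes and 10 MHC class I genes. Runx3, given above, lay under the level limit. Without the 2 deepest members it was compared, and was the 1 higher gene of 11 transcription factors. At a minimum 5 times lower, 2 of 21 were higher (Runx3 and Eomes) and 3 lower. Ccr9, the homing receptor for the gut, lay under the level limit and was higher in the Cd8b1 members, with 99.2 CPM against 7.27 CPM and 43.0% of cells against 4.17%.

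Ccl5, a chemokine of activated and memory cells, was abundant in few of the Cd8b1 cells, although 62 of 86 carried a UMI. Its level was 1230 CPM in the Cd8b1 members and 192 CPM in the Cd4 members, but the median cell in each had 1 UMI, as in B cells. In the Cd8b1 members 12 cells had at least 20 UMIs, the highest 373, and held 92.9% of that group's Ccl5 UMIs. Just 1 Cd4 member (25 UMIs) and 2 members with neither coreceptor (58 and 57 UMIs) reached 20, and no B cell exceeded 15. The other Cd8b1 cells thus held few of the Ccl5 UMIs.

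**Figure D5:**
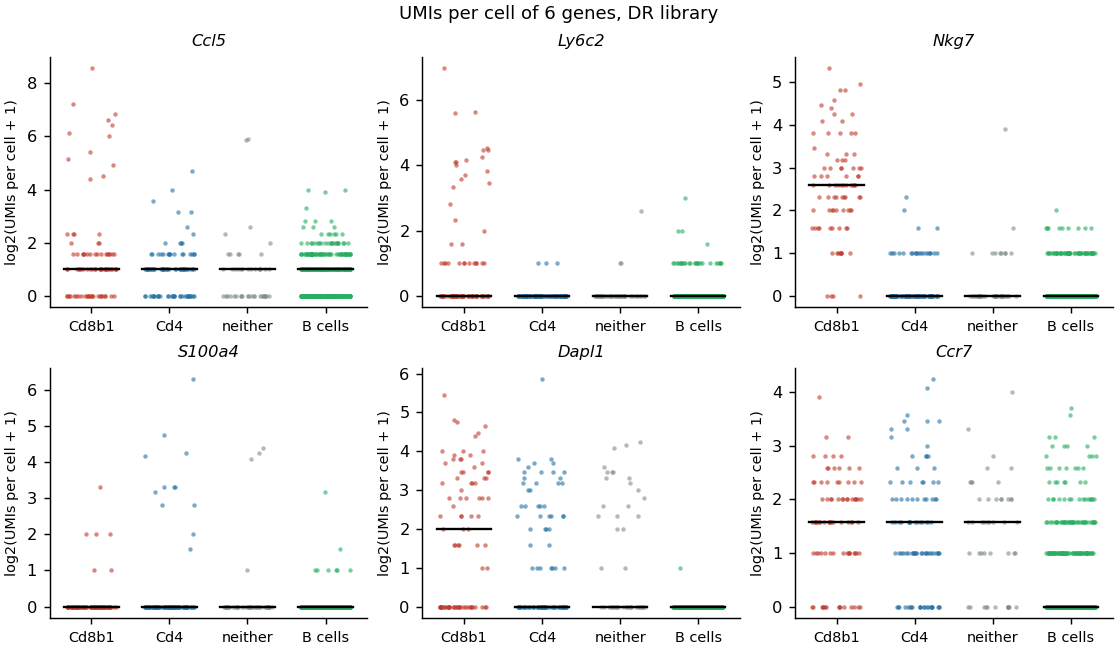
UMIs per cell, as log2(UMIs + 1), of 6 genes in the Cd8b1, Cd4 and neither members and in B cells of the DR library; each point is 1 cell and bars are medians. Nkg7 is raised across the Cd8b1 members (median 5 UMIs), Ccl5 reaches at least 20 UMIs in 12 of the 86, and S100a4 is found in 12 of the 96 Cd4 members.

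The Cd8b1 members were divided by Ly6c2, a surface protein of memory CD8 cells, into 34 with a UMI and 52 without; this gene was chosen after its values were seen, so the contrast is a description. Cells with Ly6c2 had more Ccl5 (2214 against 126 CPM), Il2rb (158 against 33.2 CPM), Eomes (82.9 against 8.87 CPM), the chemokine receptor Cxcr3 (77.0 against 4.43 CPM) and the memory marker Cd44 (37.5 against 6.65 CPM). They had less Igfbp4 (63.2 against 197 CPM), Lef1 (338 against 596 CPM) and Ccr9 (43.4 against 162 CPM). Dapl1 was close in both as a sum (551 against 485 CPM), but the cells with Ly6c2 were not alike. Of these 34 cells, 17 had 5 or more Ly6c2 UMIs and the rest fewer. In B cells the gene had 40 UMIs in all, with at most 7 in a cell. The member with 67344 UMIs had 1 Ly6c2 UMI and 4 of Ccl5, yet held 43 of the 279 Dapl1 UMIs. The summed Dapl1 level thus does not describe the cells high in Ly6c2 or Ccl5 alone. The Ly6c2 cells were deeper, with medians of 10809 and 8816.5 UMIs, and the 2 deepest members are among them. Without the 3 Ly6c2 cells over 2 times the members' median depth, an alternative chosen after seeing the data, Ccl5 was at 3238 CPM, Il2rb at 170 CPM, Eomes at 35.8 CPM, Cxcr3 at 77.6 CPM, Igfbp4 at 95.5 CPM and Lef1 at 454 CPM in the Ly6c2 cells, each on the same side as before. Dapl1 was then higher in the Ly6c2 cells, at 666 against 485 CPM. It was found in 23 of these 31 cells and in 27 of the 52 without Ly6c2. Ly6c1 and Ly6c2 are near-identical genes, and the split of reads between them is uncertain.

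On the Cd4 side, some of the higher levels came from few cells and others were spread more widely. S100a4, a calcium-binding protein of effector and memory cells, had 232 CPM in the Cd4 members against 20.9 CPM in the Cd8b1 members, yet 12 of the 96 Cd4 members held all of its UMIs. Those 12 cells, picked after seeing the values, had more S100a6 (1003 against 43.2 CPM), the integrin Itgb1 (788 against 62.6 CPM), the factor Maf (462 against 81.9 CPM) and the costimulator Icos (280.0 against 40.2 CPM) than the other 84. They had less Lef1 (91.2 against 644 CPM) and Ccr7 (117 against 363 CPM), and no Igfbp4 UMI against 356 CPM. Foxp3, described below, was found in 3 of the 12 cells and 4 of the 84, so the S100a4 and Foxp3 groups overlap. Ikzf2 was at 391 against 139 CPM. Of the 12 cells, 3 were over 2 times the members' median depth and held 53.8% of the 12 cells' UMIs, while none of the 84 was. Without those 3, an alternative chosen after seeing the data, the other 9 cells had S100a6 at 1777 CPM, Itgb1 at 606 CPM, Maf at 790 CPM, Icos at 451 CPM, Lef1 at 113 CPM and Ccr7 at 70.5 CPM, each on the same side of the 84 cells. Among the 84 cells, 77 carried Lef1, 69 Ccr7 and 49 Igfbp4. Ifi27l2a had 843 CPM in the Cd4 members against 226 CPM in the Cd8b1 members, but its shares of cells were closer, at 76.0% and 68.6%. Other levels higher in the Cd4 members were those of Ly6a (304 against 49.1 CPM), Cd28 (274 against 103 CPM) and Cd5 (280.0 against 114 CPM). Of the 84 cells without S100a4, 55 carried Cd5 and 46 carried Ly6a.

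Regulatory T cells were seen through Foxp3, their defining transcription factor. It was found in 11 members (4.68%; 0 to 8 UMIs) and in no B cell, and 7 of the 11 carried Cd4 and 1 carried Cd8b1. These 11 cells had Ikzf2 (Helios) at 1053 CPM against 71.4 CPM in the other 224 members, and Izumo1r at 948 against 86.7 CPM. Izumo1r was found in all 11 and in 65 of the 224. Tnfrsf4 (OX40) was at 526 against 19.0 CPM, the checkpoint Ctla4 at 342 against 10.95 CPM and Il2ra (CD25) at 316 against 3.33 CPM. Dapl1 and Igfbp4 were at 0 in them, and 3 of the 11 carried Ccr7. This group is small, and its levels rest on 14 to 80 UMIs per gene for Cd4 and Ikzf2.

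Most UMIs of the cell cycle list in the members came from 2 cells, by a share that differed between genes. Of 9 compared cell cycle genes, 4 were at least 2-fold higher in members than in NK cells (Mki67, Top2a, Pclaf and Birc5), where 4.09% of all compared genes were. The 2 deepest members, with 85642 and 67344 UMIs, 7548 and 6722 genes and both Cd8b1 and Cd8a, held 1034 of the members' 1552 UMIs of the list (66.6%) and 171 of 181 Mki67 UMIs, but 118 of 258 UMIs of Pcna, the replication clamp, and 50 of 129 of the helicase subunit Mcm6. Without them Mki67 had 4.94 CPM against 7.52 CPM in NK cells, and none of the 5 genes still compared was 2-fold higher. They had 0 Tyrobp UMIs, 0 and 2 Igkc UMIs and 3 and 2 UMIs of the B cell receptor subunit Cd79b; whether they were droplets of 2 cells was not tested. These cells held 7.03% of all the members' UMIs and 15.98% of those of the Cd8b1 members.

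The 2 control barcodes that met the rule had 6401 and 10347 UMIs and carried neither coreceptor. They held 2 and 10 UMIs of Cd3e, 3 and 6 of Cd3d and 3 each of Trac, with 0 Dapl1 UMIs. Their summed Ccl5 level was 22450 CPM, against 688 CPM in the DR members. With 2 cells no profile can be compared, and the difference in number between the libraries cannot be told apart from the sort or its gate.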

How the data were processed

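The files deposited by the authors hold raw UMI counts for every gene in every barcode, written by Cell Ranger (5.0.1 per the file headers, 2.1.1 per the submitters' processing notes; build mm10 per those notes). From these counts the members were taken by the rule given above, and counts were summed per class and scaled to CPM with Python 3.11.15, numpy 2.4.6, scipy 1.17.1 and pandas 2.3.3. Genes with mean levels of 20 CPM or more (T against NK cells) or 100 CPM (Cd8b1 against Cd4) were compared and called at a ratio of at least 2 or at most 0.5, leaving out the genes of the rule. Doublets were handled by the marker exclusions of the rule alone; no caller was run, and alternatives left out the deepest members. Shares were recomputed after thinning each cell to 2000 UMIs. Named genes were the 12 (T against NK) or 8 (Cd8b1 against Cd4) with the largest ratios each way, ranked by the interval end nearest 1, without ribosomal, mitochondrial, immunoglobulin, receptor segment and unnamed genes, plus members of 26 gene lists and the 5 most frequent V segments. Some genes are not reported here. The members and lists were chosen with earlier results of these data known. Scripts were tested on simulated data.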

Additional observations from a re-analysis of the deposited data

How the results depend on the processing

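The number of members was 158 to 268 across 6 alternatives, against 235. Genes higher in T than NK cells numbered 232 and, with median-of-ratios scaling, 371; without ribosomal and mitochondrial genes in the total, 564; at a mean CPM minimum 5 times lower, 649, and 5 times higher, 60. Genes lower (628) numbered 1274 and 142 at those minimums. Genes higher in Cd8b1 than Cd4 members (20) numbered 44 without ribosomal and mitochondrial genes, 153 and 1 at a minimum 5 times lower and higher, 10 with the mean of per-cell CPM, 11 without members over 2 times the median UMIs, 13 with additional NK and B cell marker exclusions and 11 without the 2 deepest members, an alternative chosen after seeing the data. Genes lower (11) numbered 27, 154 and 1 under the first 3 of these and 31 after thinning. Both the number of genes compared and the share called changed with the minimum. The cause of the changes in these counts was not tested. Without the 2 deepest members, no compared cell cycle gene was 2-fold higher in T than NK cells.

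Of 60 named log2 ratios, 644 of the recomputed values lay within the counting interval, 104 outside it on the same side or uncalled, and 4 reversed. Mki67, T against NK, was -1.27 without members over 2 times the median UMIs, -0.76 with those exclusions and -0.61 without the 2 deepest; Hist1h2ap, Cd8b1 against Cd4, was -0.083 without members over 2 times the median UMIs. No paired analysis was possible because each group is 1 library with no shared replicate numbers, and leaving out a replicate was not possible for the same reason. A count of 0 in a class allows up to 3 UMIs at this depth.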
